A study of Lactuca sativa with 9 samples.

Results

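LOC111877918 of lettuce (Lactuca sativa), annotated as coding for a pentatricopeptide repeat-containing protein, was listed with 5 of the 1650 circRNAs and with 1 of the 35342 genes in the FPKM table. The gene and all circRNAs carrying its name were taken, so no member was left out. It was chosen by its number of circRNAs and back-spliced reads in these same libraries, so those numbers are given below as a description with no test. Of the 1325 parental genes, 6 had 5 or more circRNAs, and 11 had exactly 4, so that LOC111877918 was at the lower edge of the first set. RNA was sequenced from leaves of the cultivar Hong Kong Glass lettuce, 24 d after emergence, after growth in a climate chamber at 340 (Las_SL, high light), 175 (Las_ML, medium light) or 60 (Las_WL, low light) µmol per square metre per second. These intensities follow the sample labels and the methods, whereas other passages of the study give those of Las_SL and Las_WL the other way round. All groups had the same cultivar, tissue, age and day length, no group was a mutant, and each had 3 libraries described as biological replicates of cut and mixed leaves. The light groups were set up to find circRNAs and parental genes whose level changes with light intensity.

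Pentatricopeptide repeat proteins are RNA-binding proteins that are encoded in the nucleus and mostly imported into chloroplasts or mitochondria. There, tandem repeats of a short helical motif contact single-stranded RNA, and family members take part in editing, splicing, end processing, stabilization and translation of organelle transcripts. In plants the family is large, and mutants of single members often have pale leaves or poor photosynthesis. The deposited annotation places the product of LOC111877918 in the chloroplast and gives it the process mRNA stabilization. A circRNA arises when the end of an exon is joined back to the start of the same or an upstream exon of one transcript, and the reads that cross this joint, the back-spliced reads, are its only measure here. The FPKM of the gene (fragments scaled to transcript length and library depth) measures its transcripts as a whole, in which a share of fragments can come from circular molecules. Whether the FPKM came from RNA treated with RNase R, which digests linear RNA, was not settled. If it did, that share could be large, and comparing circRNA213 with the FPKM would partly compare it with itself.

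All 5 circRNAs lay on the plus strand of scaffold NW_019678756.1 of Lsat_Salinas_v7, on transcript XM_023874421.1 (gene identifier MSTRG.17254), and all were listed as exonic circRNAs of an mRNA. They covered 3743 bp with 10 exons, numbered here from 1 at the first back-splice start, since exons of the gene outside this stretch were not listed with them. circRNA213 ran from 2066431 to 2067844 and joined the end of exon 8 back to the start of exon 5, with 4 exons over a span of 1414 bp. Exons 5 and 8 were 100 and 91 bp long and exons 6 and 7 lay in a block of 300 bp, so that the circle held at most 491 bases of exon sequence. Exon 8 is preceded by an intron of 701 bp, the longest of the 7 introns whose limits were listed, which lies inside circRNA213. The introns flanking circRNA213 itself had 165 bp on the left and 144 bp on the right.

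The 4 other circRNAs used other joints, and none of them shared its start or its end with circRNA213. circRNA1034 (2064648 to 2067052) held exons 1 to 7 and circRNA856 (2064648 to 2066530) held exons 1 to 5, both starting at exon 1 behind an intron of 250 bp. circRNA1392 (2066125 to 2066530) held only exons 4 and 5, a circle of 241 bases, and ended at the same exon end as circRNA856. circRNA1035 (2067754 to 2068390) held exons 8 to 10 and started at exon 8, the last exon of circRNA213. Exon 5 thus lay in 4 of the 5 circRNAs, and the gene used 4 back-splice starts and 4 ends in all. The bases of these exons, their reading frame and which of them are coding or untranslated were not examined here.

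**Figure D1:**
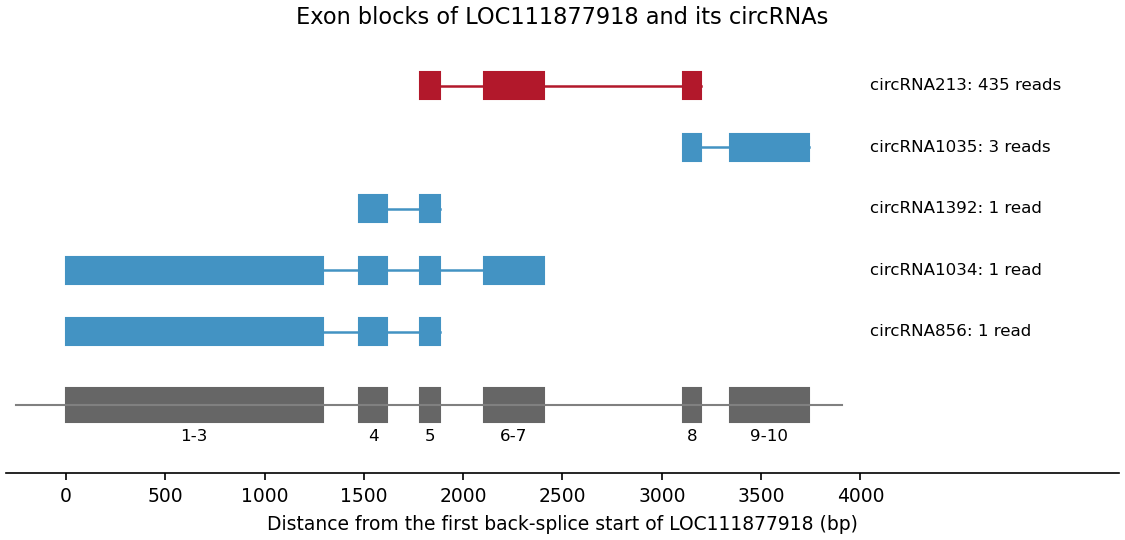
Exon blocks (grey, numbered by exon) and the blocks held by each of the 5 circRNAs (red for circRNA213, blue for the others) along LOC111877918, in bp from the first back-splice start, with back-spliced reads over 9 libraries at the right. A block of several exons is drawn whole, since introns inside it were not listed. circRNA213, with 435 reads, spans exons 5 to 8 and shares neither of its ends with the other circRNAs, which have 1 to 3 reads each.

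The gene made in effect one circRNA that could be measured. circRNA213 had 435 of the 441 back-spliced reads of LOC111877918, or 98.6% (95% exact binomial interval 97.1 to 99.5%), and was read in all 9 libraries. circRNA1035 had 3 reads, of which 1 was in Las_ML replicate 2 and 2 were in Las_WL replicate 3. circRNA1034 had its single read in Las_ML replicate 2, circRNA856 in Las_ML replicate 1 and circRNA1392 in Las_WL replicate 2. The 6 reads of these circRNAs fell in 4 libraries, and the 3 Las_SL libraries held 0, which a count this low does not distinguish from the other groups. At 3 reads, the limit that a count of 0 allows was 0.290 to 0.754% of the back-spliced reads of a library. Intervals and limits cover counting error only, because PCR copies of one molecule could not be removed.

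The same gene stood at the upper end of both readouts. circRNA213 alone held 6.36% of the 6836 back-spliced reads of the series and had rank 2 among circRNAs in 8 libraries and rank 3 in Las_WL replicate 1. By summed reads LOC111877918 had rank 2 among parental genes, after LOC111877779 with 1674 reads of 1 circRNA. The other 5 genes with at least 5 circRNAs had 5 to 19 reads each, and their leading circRNA held 20% to 44.4% of them. They were LOC111899141, LOC111896900, LOC111895660 and the following pair. LOC111914688, an unconventional myosin, had 19 reads, and LOC111917240, a glycine dehydrogenase of the photorespiratory glycine cleavage system, had 5 reads spread over 5 circRNAs. Among the 136 circRNAs with 4 exons, the next most abundant had 61 reads.

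Introns next to circRNA213 were not unusual in length among circRNAs that were read repeatedly. Over the 340 exonic circRNAs with both flanking introns listed and reads in at least 2 libraries, the median flanking intron was 235 bp on the left and 222.5 bp on the right. A left intron no longer than that of circRNA213 was found in 42.4% of them and a right intron no longer than its own in 39.1%. Over all 1507 exonic circRNAs with both flanking introns listed, the medians were 161 and 156 bp, near the 165 and 144 bp of circRNA213. Its span of 1414 bp was above the median span of 942.5 bp over circRNAs with 4 exons.

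Before the groups are compared, the libraries need a description, because Las_WL replicate 1 stood apart. The libraries held 398 to 1036 back-spliced reads, with the lowest number in Las_WL replicate 1. The summed FPKM of 39 genes annotated with histone H2A, H2B, H3 or H4 (a list meant to mark dividing cells, which also takes in some histone-modifying enzymes) was 7660 in that library and 509 to 2206 in the 8 others, with 0 list genes at 0. The summed FPKM of 29 chlorophyll a-b binding and RuBisCO small subunit genes, which mark leaf mesophyll, was also lowest in this library at 10624, far below the 22865 and 27429 of the other Las_WL libraries but close to the 11188 to 15442 of Las_SL, again with 0 genes at 0. The levels, tests and lists that rest on Las_WL are therefore also given without this library. Fewer cells of a type and less RNA per cell cannot be told apart in leaf tissue.

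circRNA213 had nearly the same level in all 3 Las_ML libraries and a wide spread in Las_WL. Its back-spliced reads numbered 34, 58 and 38 in Las_SL replicates 1 to 3, 63, 58 and 50 in Las_ML, and 9, 65 and 60 in Las_WL. Per 100000000 uniquely mapped reads, called normalized reads from here on, this gave 48.7, 85.1 and 60.3 in Las_SL. In Las_ML the normalized reads were 72.4, 77.9 and 73.9, and in Las_WL they were 13.1, 99.0 and 97.7. The Las_SL libraries thus surrounded those of Las_ML on both sides, and Las_WL held both the lowest library and the highest pair of the series. The group means were 64.7 ± 18.6 for Las_SL, 74.7 ± 2.85 for Las_ML and 69.9 ± 49.3 for Las_WL (SD, n = 3). Without Las_WL replicate 1, the Las_WL mean was 98.4 ± 0.913 (SD, n = 2), and the values of this pair did not overlap with the other groups. With at most 65 reads per library, the small SDs of this pair and of Las_ML understate counting error. They do not measure how exact each level is, here and in the ratio below.

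The parental gene shared its lowest library and its highest pair with circRNA213, but not the order of the rest. Las_SL replicate 2 was high for the circRNA and low in FPKM. Its FPKM was 34.0, 28.4 and 35.4 in Las_SL replicates 1 to 3, 33.4, 40.4 and 38.1 in Las_ML, and 21.7, 46.3 and 45.8 in Las_WL. Again the lowest library and the highest pair were all in Las_WL, while Las_SL and Las_ML overlapped. The mean FPKM was 32.6 ± 3.68 in Las_SL, 37.3 ± 3.57 in Las_ML and 37.9 ± 14.1 in Las_WL (SD, n = 3), and 46.0 ± 0.350 in Las_WL without replicate 1 (SD, n = 2). On the FPKM scale the order of the group means ran from Las_SL over Las_ML to Las_WL with or without that library. Over all 9 libraries no neighbours in this order differed beyond their spread, and on the log2 scale of the test below Las_WL lay under Las_ML. Over all libraries the mean FPKM was 35.9, above that of 92.8% of all genes.

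**Figure D2:**
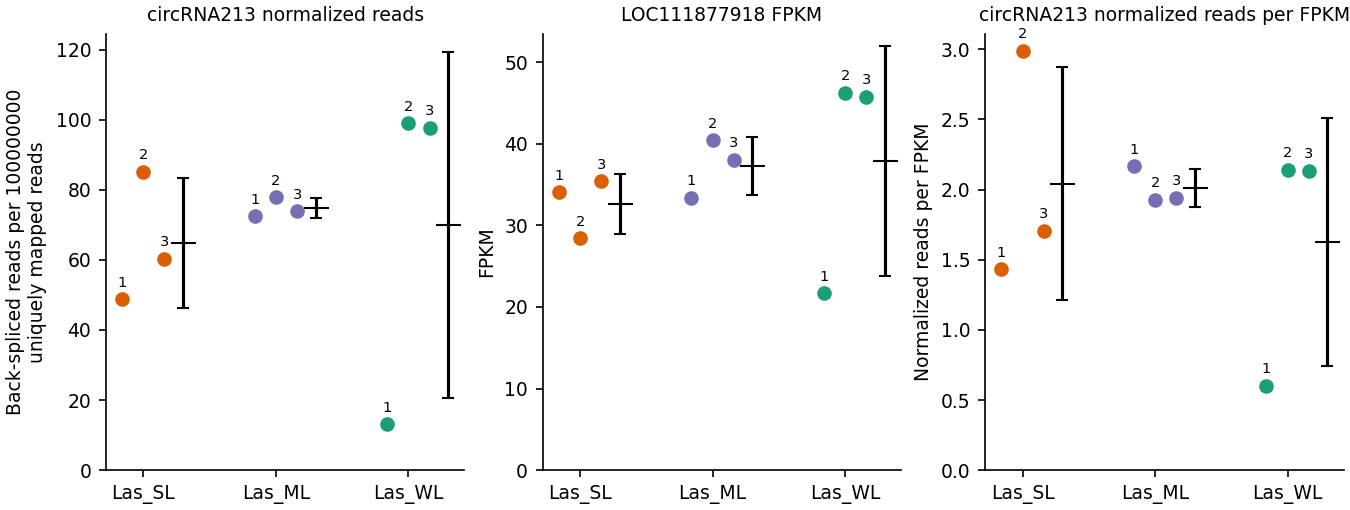
circRNA213 in back-spliced reads per 100000000 uniquely mapped reads (left), LOC111877918 in FPKM (middle) and their ratio (right) in each library by light group, with replicate numbers at the points and the mean ± SD (n = 3) beside them. Las_WL replicate 1 is lowest in all 3 panels (13.1 normalized reads, 21.7 FPKM, ratio 0.602) and Las_WL replicates 2 and 3 are highest in the left and middle panels.

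No light comparison passed the test for circRNA213. In edgeR, the log2 fold change was -0.21 ± 0.51 (SE, 95% interval -1.21 to 0.80, adjusted p = 0.997) for Las_SL vs. Las_ML. It was -0.10 ± 0.51 (-1.11 to 0.91, edgeR adjusted p = 1) in the comparison of Las_WL with Las_ML. Between Las_SL and Las_WL it was -0.11 ± 0.52 (-1.12 to 0.91, edgeR adjusted p = 1). A call needed a log2 fold change of 1 or more in size together with p of at most 0.05 before adjustment. By this rule 2.31%, 3.17% and 3.75% of the 347 tested circRNAs were called in these 3 comparisons, and 0 of the 5 circRNAs of LOC111877918 were among them. The study, which names edgeR with the same thresholds, reported many more differential circRNAs in each comparison, and why was not tested. Only circRNA213 and circRNA1035 had reads in at least 2 libraries and entered the test, and circRNA1035 had at most 3 reads in every group, so no fold change is given for it. The intervals of circRNA213 in this fit reach past -1 on the log2 scale but end below 1. In each comparison a fall of that size in the first group thus lies inside the interval and a rise of that size lies outside it. This holds for this fit only, since without Las_WL replicate 1 the interval for Las_WL vs. Las_ML reached 1.03.

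Leaving out Las_WL replicate 1 moved both Las_WL comparisons of circRNA213 without a call. The log2 fold change for Las_WL vs. Las_ML became 0.40 ± 0.32 (SE, 95% interval -0.24 to 1.03, edgeR adjusted p = 0.707), the opposite sign. For Las_SL vs. Las_WL it became -0.60 ± 0.33 (-1.25 to 0.04, edgeR adjusted p = 0.635, unadjusted p = 0.0661). In this fit 3.99% and 2.76% of 326 circRNAs were called in the 2 comparisons.

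No comparison passed the test for the parental gene either. In limma on log2(FPKM + 1), the log2 fold change was -0.19 ± 0.28 (SE, 95% interval -0.84 to 0.46, adjusted p = 1) for Las_SL vs. Las_ML. It was -0.05 ± 0.28 (-0.70 to 0.60, limma adjusted p = 0.991) for Las_WL vs. Las_ML, where quantile normalization turned it to 0.046, and -0.14 ± 0.28 (-0.79 to 0.51, limma adjusted p = 0.830) for Las_SL vs. Las_WL. For genes the same fold was needed with a limma p that stayed below 0.05 after adjustment, which 0.00382%, 0% and 2.93% of the 26145 tested genes reached in these comparisons. The median log2 fold change over all tested genes was 0.05, -0.13 and 0.18. Relative to it, LOC111877918 lay on the lower side for Las_SL vs. Las_ML and Las_SL vs. Las_WL and on the upper side for Las_WL vs. Las_ML.

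Without Las_WL replicate 1, the FPKM of LOC111877918 was lower in Las_SL than in Las_WL by less than the fold needed for a call. The log2 fold change was -0.49 ± 0.13 (SE, 95% interval -0.80 to -0.18, limma adjusted p = 0.0411), with the 3 Las_SL libraries at 28.4 to 35.4 FPKM and the remaining Las_WL libraries at 45.8 and 46.3. In the same fit the median of all genes was on the other side of 0, at 0.33, and 4.19% of 25842 genes were called. For Las_WL vs. Las_ML the value was 0.30 ± 0.13 (-0.01 to 0.61, limma adjusted p = 0.190), beside a median over all genes of -0.26 and 0.31% of genes called. With all 9 libraries the limma adjusted p was 0.830 for Las_SL vs. Las_WL and 0.991 for Las_WL vs. Las_ML. Las_WL replicate 1 was singled out because it stood apart, and it is also the library with the lowest FPKM of this gene. Leaving out Las_WL replicate 2 or 3 instead gave 0.040 and 0.032 for Las_SL vs. Las_WL (limma adjusted p = 0.951 and 0.960). The difference thus rests on which library is left out.

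**Figure D3:**
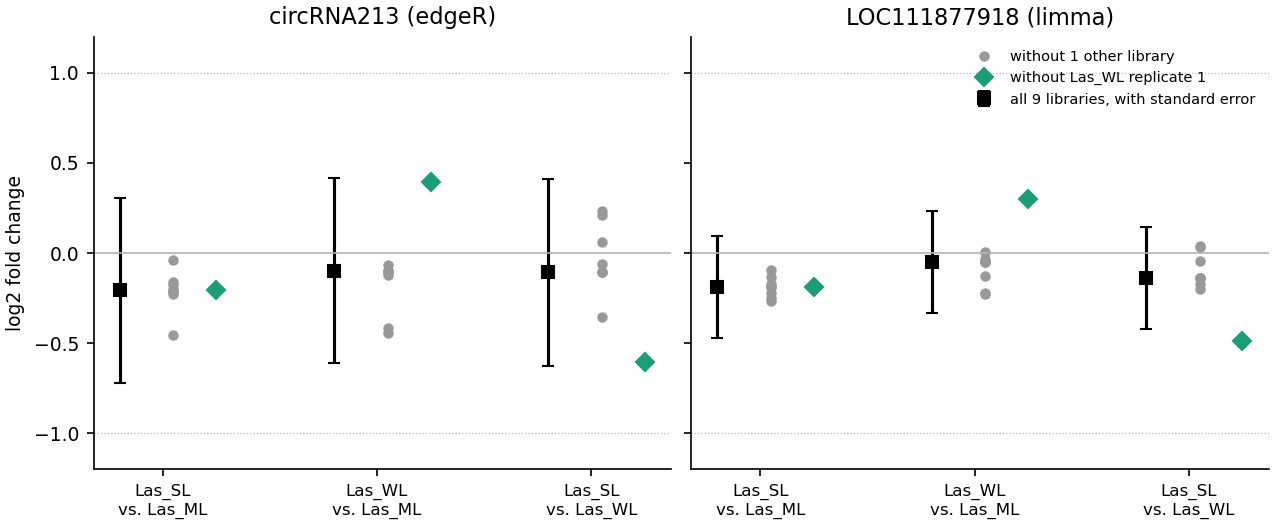
log2 fold change of circRNA213 (edgeR, left) and LOC111877918 (limma on log2(FPKM + 1), right) in the 3 comparisons: black squares with standard errors for all 9 libraries, green diamonds without Las_WL replicate 1, grey points with each other library left out in turn, dotted lines at a log2 fold change of 1 and -1. No point reaches the dotted lines, and the green diamond lies above 0 for Las_WL vs. Las_ML (0.40 and 0.30) and below 0 when Las_SL is set against Las_WL (-0.60 and -0.49).

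Set against the transcripts of the gene, circRNA213 ran from 0.602 to 2.99 normalized reads per FPKM, with a wide spread in Las_SL and Las_WL. Normalized reads of circRNA213 per FPKM of LOC111877918 were 1.43, 2.99 and 1.70 in Las_SL replicates 1 to 3, 2.17, 1.93 and 1.94 in Las_ML, and 0.602, 2.14 and 2.13 in Las_WL. The highest ratio was in Las_SL replicate 2, where the circRNA was high and the FPKM low, and the lowest was in Las_WL replicate 1. The means were 2.04 ± 0.833 for Las_SL, 2.01 ± 0.135 for Las_ML and 1.63 ± 0.886 for Las_WL (SD, n = 3), and 2.14 ± 0.00359 for Las_WL without replicate 1 (SD, n = 2). The difference of the means was 0.0308 for Las_SL vs. Las_ML, -0.386 for Las_WL vs. Las_ML and 0.417 between Las_SL and Las_WL. Two-sided exact permutation tests gave p = 1, 0.8 and 0.6 for these differences, where 3 libraries against 3 cannot go below 0.1. The back-spliced reads of all 5 circRNAs summed gave differences of -11.3, -4.46 and -6.81 normalized reads with exact permutation p = 0.4, 1 and 0.8. Without Las_WL replicate 1, the summed reads differed by 24.8 for Las_WL vs. Las_ML (exact permutation p = 0.1, the smallest possible) and by -36.1 between Las_SL and Las_WL (exact permutation p = 0.2), so that the sign of the former turned. The ratio then differed by 0.126 and -0.0947 (exact permutation p = 0.4 and 1), both with the opposite sign from the values of all 9 libraries.

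Both readouts were low in Las_WL replicate 1, to unequal extents. circRNA213 was 7.54-fold lower there than in the mean of Las_WL replicates 2 and 3, the FPKM of the gene 2.12-fold lower and all other back-spliced reads 1.58-fold lower. The histone list was 14.0-fold higher in the same comparison. The share of circRNA213 among the back-spliced reads of this library was 2.26% (95% exact binomial interval 1.04 to 4.25%), against 9.23% (7.20 to 11.6%) in Las_WL replicate 2 and 10.8% (8.31 to 13.6%) in replicate 3. These intervals do not overlap, but they take reads as independent, and PCR copies could not be removed. The library was also singled out because it stood apart, so chance was not excluded. Of the 20 circRNAs with at least 10 reads in Las_WL, 2 had a lower ratio of shares between replicate 1 and the other pair than the 0.228 of circRNA213, and the median ratio was 1.27. In Las_SL the share was 4.07, 5.86 and 5.40% and in Las_ML 6.08, 6.72 and 6.69%, so that the Las_WL pair was highest by share as well. The 95% exact binomial interval of the share in Las_SL replicate 2 (4.48 to 7.51%) overlapped with that in Las_WL replicate 2. All other back-spliced reads, which make up most of the denominator of this share, stood at 1191 ± 159 normalized reads at high, 1076 ± 44.4 at medium and 783 ± 206 at low light (SD, n = 3), and at 892 ± 115 at low light without replicate 1 (SD, n = 2).

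Across the 9 libraries, the relation of circRNA213 to 3 measures was computed, with p-values from exact permutation of the pairing and Benjamini-Hochberg adjustment over the 3. With the FPKM of its own gene, Pearson's r was 0.80 (exact permutation p = 0.00871, adjusted 0.0131) and Spearman's rho 0.70 (p = 0.0433, adjusted 0.0649). With Las_WL replicate 1 left out, r was 0.59 (exact permutation p = 0.122), and without the 2 libraries farthest from the median FPKM, Las_WL replicates 1 and 2, it was 0.43 (p = 0.333), so the relation rests on those libraries. The study verified circRNA213 by PCR with divergent primers, among circRNAs it chose partly for differential expression. By RT-qPCR it reported an inverse correlation between circRNA213 and its parental gene. It also described RT-qPCR of the chosen circRNAs as matching RNA-Seq, with all but 1 higher in Las_SL and Las_WL than in Las_ML. Here the mean of circRNA213 was highest in Las_ML with all 9 libraries and in Las_WL without replicate 1. RT-qPCR is another measure, set between light groups, and why the direction of the correlation differs was not tested. With the summed FPKM of the histone list, r was -0.89 (exact permutation p = 0.0014, adjusted 0.00419) and rho -0.85 (p = 0.00607, adjusted 0.0182). This relation had r = -0.79 without Las_WL replicate 1 (exact permutation p = 0.0226) and r = -0.76 without the same 2 libraries as above (p = 0.0482), which are not the farthest by histone sum. All p-values with libraries left out are unadjusted, and the permutations ran across light groups without keeping them apart. With all other back-spliced reads, r was 0.45 (exact permutation p = 0.218) and rho -0.05 (p = 0.912), and r was -0.38 without Las_WL replicate 1 (p = 0.359) and -0.30 without the same 2 libraries (p = 0.545). The points of each relation come from the same libraries, and a part of depth, tissue makeup or RNA quality in them was not tested.

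**Figure D4:**
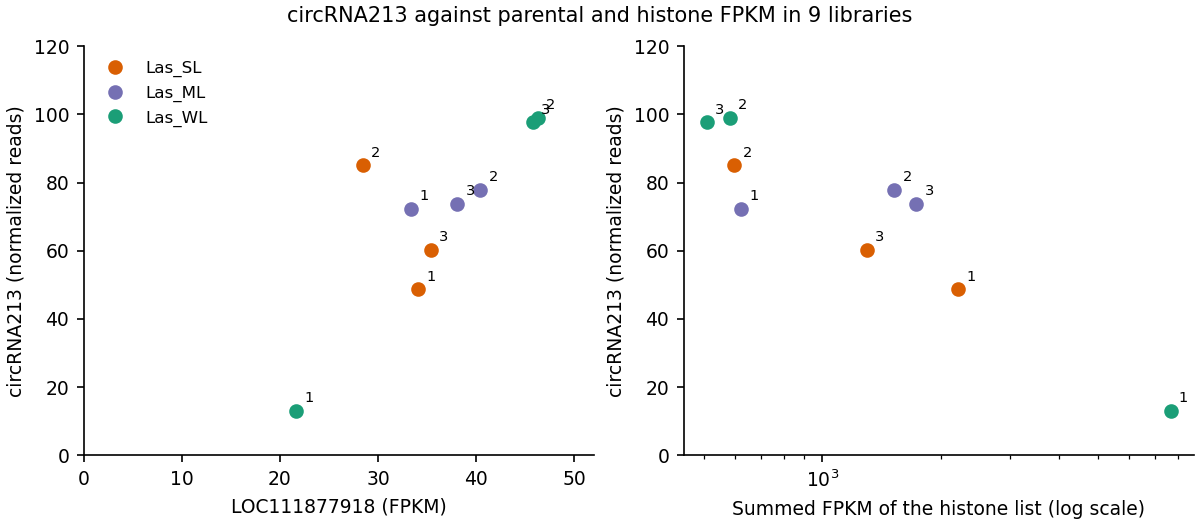
Normalized reads of circRNA213 in the 9 libraries against the FPKM of LOC111877918 (left) and against the summed FPKM of the histone list on a log axis (right), coloured by light group and numbered by replicate. Las_WL replicate 1 lies at 13.1 normalized reads, with 21.7 FPKM of the gene and 7660 FPKM of the histone list, away from the 8 other libraries in both panels.

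Within its family, LOC111877918 was among the most highly expressed genes and had nearly all back-spliced reads. The gene table listed 431 genes annotated as pentatricopeptide, with a median of 0.822 for their mean FPKM. LOC111877918, at 35.9 FPKM, had rank 3 after LOC111918540 at 46.2 and LOC111902069 at 36.3, neither of which had a circRNA. Only 4 of the 431 genes had any circRNA, 8 circRNAs with 450 reads in all, so 9 reads lay outside LOC111877918. LOC111893060 had 6 of these at a mean of 5.40 FPKM, LOC111899821 had 2 at 0.348 FPKM and LOC111889595 had 1 at 7.63 FPKM. At a mean of 0.5 FPKM or more, 1.01% of the pentatricopeptide genes had a circRNA, beside 5.27% of all 26145 genes at that level. The counts for LOC111877918 follow from how it was chosen.

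**Figure D5:**
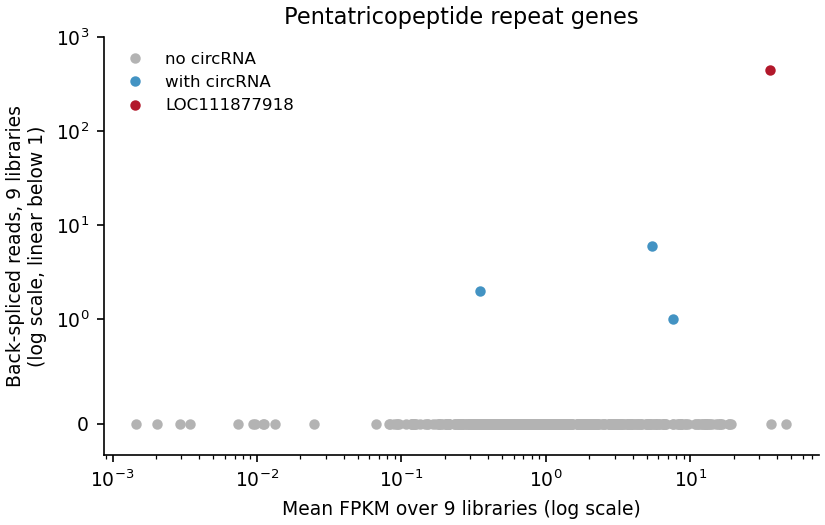
Back-spliced reads over 9 libraries (log axis, linear below 1) against mean FPKM (log axis) of the 431 pentatricopeptide repeat genes, with LOC111877918 in red, the other 3 genes with a circRNA in blue and those without in grey. LOC111877918 lies at 35.9 FPKM and 441 reads, and the blue points at 1 to 6 reads.

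Between light groups, 0 of the 298 pentatricopeptide genes tested with limma were called in each of the 3 comparisons, beside 0.00382%, 0% and 2.93% of all genes. For Las_SL vs. Las_ML and Las_WL vs. Las_ML these shares are so low that 0 calls cannot tell the family from the background. The 431 listed genes had a median of 0.822 for their mean FPKM, and log2(FPKM + 1) understates fold changes of low genes. The 767 genes called for Las_SL vs. Las_WL also became 6 with quantile normalization and 1 with only the compared libraries. For Las_SL vs. Las_WL, 0 calls and the medians below are therefore not read as a trait of the family. At an unadjusted p under 0.05, limma had 4 higher and 0 lower of the 298 genes for Las_SL vs. Las_ML, 0 and 8 in the comparison of Las_WL with Las_ML, and 28 and 3 between Las_SL and Las_WL. Over all tested genes, 5.52%, 13.8% and 26.3% had such a p in these comparisons. The counts of a fit that left out Las_WL replicate 1 were more than 3-fold higher, at 5 higher and 46 lower of 286 for Las_WL vs. Las_ML, and at 92 higher and 11 lower between Las_SL and Las_WL, beside 28.1% and 40.5% of all genes. With all 9 libraries the median log2 fold change of the family was 0.06, -0.03 and 0.10 in this order, beside 0.05, -0.13 and 0.18 for all genes. Leaving out Las_WL replicate 1 gave medians of -0.19 for Las_WL vs. Las_ML and 0.26 between Las_SL and Las_WL, beside -0.26 and 0.33 for all genes. From the lowest log2 fold change upward, LOC111877918 was number 16 of 298 for Las_SL vs. Las_ML, 46 for Las_SL vs. Las_WL and 130 for Las_WL vs. Las_ML. In the fit without Las_WL replicate 1 it was number 7 of 286 for Las_SL vs. Las_WL and 276 of 286 for Las_WL vs. Las_ML. Both ranks rest on the same Las_WL pair, which enters the 2 comparisons with opposite signs, so they are not separate results. Since the scale understates fold changes of low genes, these ranks can partly follow the level of expression. In that fit, in which 4.19% of all genes were called between Las_SL and Las_WL, 1 family member, LOC111916405, passed the call rule for Las_SL vs. Las_WL, with a log2 fold change of -1.01 ± 0.24 (SE, limma adjusted p = 0.0297).

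Other genes of organelle RNA metabolism were too few for their calls to be read against the called shares of 0.00382%, 0% and 2.93% over all genes. Limma called 0 of the 10 CRM domain genes, which code for splicing factors of chloroplasts and mitochondria, in any comparison, and their median log2 fold changes were -0.08, -0.01 and 0.11. The 2 mTERF genes, of a family of organelle nucleic acid-binding proteins, and the 1 organellar RNA editing factor also had 0 calls, and in the limma fit of 9 libraries 0 genes of the 3 lists had an unadjusted p under 0.05. When Las_WL replicate 1 was left out, limma gave such a p to 5 CRM domain genes that were higher and 1 that was lower in Las_SL than in Las_WL. The editing factor was also higher in Las_SL than in Las_WL with such a p, beside 40.5% of all genes. Another 2 results with such a p were CRM domain genes lower in Las_WL than in Las_ML, beside 28.1% of all genes. Lists this short cannot be told from these shares, and calls were again 0. The 4 other genes annotated with mRNA stabilization, picked after their values were seen, were LOC111877017 at 64.3 FPKM, LOC111883374 at 11.5, LOC111894242 at 7.25 and LOC111901335 at 6.63. None of these genes, annotated as nucleotide-binding proteins with an alpha-beta plait, had a circRNA or a limma call.

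The genes whose FPKM ran most like that of LOC111877918 are given as a description, by Pearson's r of log2(FPKM + 1) over 9 libraries. LOC111898594, annotated as pheophorbide a oxygenase, an enzyme of chlorophyll breakdown, had r = 0.991 and stood at 48.4 FPKM in Las_WL replicate 1 and 57.5 to 95.1 in the others. LOC111887200, of no known function, had r = 0.981. LOC111889702, an alanine-tRNA ligase of chloroplasts and mitochondria, had r = 0.980, and LOC111887603, with domains of elongation factor G, had r = 0.979. LOC111889393, a myosin II heavy chain-like protein, had r = 0.974. Without Las_WL replicate 1 these 5 values of r were 0.947 to 0.982, but only LOC111898594, then at rank 4, was still among the 5 most alike, and the others were at ranks 36 to 60. The list was then led by LOC111893307, a Barwin-like endoglucanase, with r = 0.992, which had r = 0.378 over 9 libraries. All of these genes share library, depth and normalization with LOC111877918.

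Among circRNAs with at least 10 reads, the highest r of normalized reads over 9 libraries was 0.752 for circRNA488 (14 reads), followed by 0.627 for circRNA74 of a fatty acyl-CoA reductase gene (10 reads) and 0.580 for circRNA26 of an oxoglutarate/iron-dependent dioxygenase gene (15 reads). With counts this low these are weak likenesses, and each of the 3 had 0 reads in Las_WL replicate 1. Without that library circRNA347 (19 reads, r = 0.838) and circRNA21 (38 reads, r = 0.753) came before circRNA488 (r = 0.727), and circRNA26 had r = 0.343. circRNA132, the most abundant circRNA of the series, had r = 0.503 with circRNA213 over 9 libraries and -0.06 without Las_WL replicate 1.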

How the data were processed

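Leaf RNA of 3 light groups with 3 libraries each was analysed. Per the methods, RNA was depleted of rRNA and treated with RNase R, whereas the sample labels describe poly(A) selection, and which of these applies to the FPKM table was not settled. Read trimming by the authors used Cutadapt, mapping to the assembly Lsat_Salinas_v7 used TopHat2 with Bowtie2 and then TopHat-Fusion, and CIRCexplorer gave the circRNAs. The submitters' processing notes list Bowtie 0.12.2, HISAT2 2.0 and StringTie 1.3.0. The deposited counts are unnormalized back-spliced reads, 398 to 1036 per library. The deposited SRPBM signal, scaled to candidate junction reads, served only as an alternative library size. The FPKM of genes was computed by the authors. The number of fragments behind an FPKM is unknown.

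Back-spliced counts were tested, where 2 or more libraries had a read, with edgeR 4.0.16 (quasi-likelihood, R 4.3.3, all 9 libraries, no block) with the uniquely mapped reads given by the study as library size. For genes averaging 0.5 FPKM or more, log2(FPKM + 1) was tested with limma 3.58.1 (trend), and fold changes on that scale understate those of low genes. Benjamini-Hochberg adjustment ran over all features tested. Exact permutation tests used scipy 1.17.1, and both fits were tested on simulated data. Alternatives were DESeq2 1.42.0, other library sizes, filters, pseudocounts, quantile normalization, a replicate block, only the compared libraries and each library left out. Each library was left out in turn, and Las_WL replicate 1 was singled out for the levels and tests because it stood apart in these data. Leaving it out for the family counts, correlations and likeness lists was also chosen after seeing the data. P-values of the main fits set a difference against a spread between libraries that is estimated over all 3 groups and moderated across features. Las_WL replicate 1 therefore also widens the SE for Las_SL vs. Las_ML, which for the FPKM was 0.28 with it and 0.12 without it. Genes and circRNAs named are all members, the 3 family members with most reads besides, genes with at least 5 circRNAs, and the 5 genes and 3 circRNAs most alike by Pearson's r. Others named (the leading circRNA and its gene, the family members of higher FPKM or with a call, the mRNA stabilization genes, and those leading the likeness lists without Las_WL replicate 1) were chosen after their values were seen. Members and lists were chosen with earlier results of these data known. RefSeq of another build (Lsat_Salinas_v11) lists the gene as protein-coding with 0 overlapping genes. No sequences were used.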

Additional observations from a re-analysis of the deposited data

How the results depend on the processing

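Neither circRNA213 nor LOC111877918 was called under any of the 16 alternatives run for each comparison. With each library left out in turn, the log2 fold change of circRNA213 was -0.45 to -0.04 for Las_SL vs. Las_ML, -0.44 to 0.40 for Las_WL vs. Las_ML and -0.60 to 0.23 for Las_SL vs. Las_WL, and that of the FPKM was -0.26 to -0.10, -0.23 to 0.30 and -0.49 to 0.040. The summed reads then differed by -21.5 to -3.29, -19.2 to 24.8 (24.8 without Las_WL replicate 1) and -36.1 to 7.92 normalized reads, the ratio by -0.443 to 0.336, -0.643 to 0.126 and -0.0947 to 0.722, and the share of circRNA213 in the gene stayed at 98.4 to 99.0%. Called circRNAs numbered 4 to 10, 4 to 13 and 7 to 11, and called genes 0 to 11, 0 to 80 (80 without Las_WL replicate 1) and 0 to 1084 (0 without Las_SL replicate 3, 1084 without Las_WL replicate 1). Of pentatricopeptide genes, 1 was called for Las_SL vs. Las_WL without Las_WL replicate 1 and 0 with it. Counts of calls moved with the method: DESeq2 called 2, 2 and 2 circRNAs and a minimum of 10 reads gave 4 for Las_SL vs. Las_ML, where 8 were called. Only the compared libraries gave 8 circRNAs for Las_SL vs. Las_WL, where 13 were called. Genes called for Las_SL vs. Las_ML were 0 with a pseudocount of 0.1, a minimum FPKM of 5 or only the compared libraries, and 2 with no filter. For Las_WL vs. Las_ML they were 2 with the pseudocount, the minimum of 5 or quantile normalization and 1 with no filter, and for Las_SL vs. Las_WL 6 with quantile normalization, 323 with FPKM rescaled without the 10 most abundant genes and 1 with only the compared libraries. Without Las_WL replicate 1, r of circRNA213 with all other back-spliced reads turned to -0.377. Signs turned in some alternatives without a call: the FPKM for Las_WL vs. Las_ML was 0.046 with quantile normalization, the summed reads with back-spliced totals as library size differed by 0.975 percentage points for Las_WL vs. Las_ML, and the ratio on that scale by -0.0154, 0.00484 and -0.0202. The causes were not tested.

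The replicate numbers did not pair the libraries: deviations of same-numbered libraries from their group means correlated at -0.519 to 0.561 over genes. With the replicate number as a block, 5 circRNAs were called for Las_SL vs. Las_ML and 8 for Las_SL vs. Las_WL, 0 genes were called in both, and circRNA213 stood at 0.060 for Las_SL vs. Las_WL (edgeR adjusted p = 1). At 9 to 65 reads per library for circRNA213, depth limits each level, and at 1 to 3 reads the other circRNAs allow no comparison.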
